A study of Mus musculus with 6 samples.

Results

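The genes of the DNA replication machinery are described here in spleens of mice given the peptide MOTS-c and in spleens of mice given a scrambled peptide. The set was chosen by name: 48 genes that license origins, unwind DNA, copy it, supply its building blocks and repack it into chromatin, of 20902 genes and unnamed probes that could be tested. All 48 were on the array table, read by 87 of its 31692 probes, and every one of those probes was well above background on all 6 arrays. Both groups were female NOD mice, a strain that becomes diabetic through autoimmune loss of islets. Injections into the peritoneum were given daily, of MOTS-c at 0.5 mg/kg per day in one group and of a non-specific scrambled form of the peptide, called vehicle, in the other. The mice entered the study at 6 weeks of age. At 18 weeks, after 16 to 18 h without food, the spleens were taken for total RNA, and each of the 3 samples per group was hybridised to 1 Agilent array as Cy3-labelled cRNA. MOTS-c is a short peptide encoded in mitochondrial DNA. Whether the 3 samples are 3 mice is not stated in the labels, and all p-values measure the spread between these samples only.

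Replication starts with licensing. The origin recognition complex, ORC, sits on DNA, and Cdc6 and Cdt1 load the ring of MCM2 to MCM7 around it, while geminin, the product of Gmnn, binds Cdt1 and stops a second loading. Cdc45 and the GINS complex then turn the MCM ring into the working helicase, polymerase alpha with primase lays down primers, and polymerases epsilon and delta extend them on the clamp PCNA, which is opened and closed by replication factor C. Many of these genes are transcribed under E2F factors when a cell commits to division, and are low in resting cells. In the adult mouse spleen, red cell precursors of the red pulp and activated lymphocytes are the main dividing cells.

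The letters that E2F factors are best known to bind were looked up in the promoters of the set, to count how many of the genes hold them. RefSeq promoter windows of build GRCm38.p6, from 250 bases before to 50 bases after the start of the gene, were matched by symbol for 39 of the 48 genes. The words searched, on both strands, were TTTCCCGC, TTTCGCGC, TTTGCCGC and TTTGGCGC, and overlapping matches counted once per gene. At least 1 of them was in the window of 15 of the 39 genes, or 38.5%, against 2.60% of the 27025 genes with a window. The stretches below are from 4 genes that were lower with MOTS-c and from 2 genes, Orc3 and Gins3, whose groups overlapped. Each is written 5′ to 3′ on the strand of the gene, with the matched words in capitals.
Mcm6: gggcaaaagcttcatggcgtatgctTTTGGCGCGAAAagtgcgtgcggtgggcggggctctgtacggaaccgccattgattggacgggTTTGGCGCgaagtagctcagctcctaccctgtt
Mcm5: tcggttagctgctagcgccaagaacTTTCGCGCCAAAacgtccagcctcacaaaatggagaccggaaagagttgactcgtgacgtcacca
Orc1: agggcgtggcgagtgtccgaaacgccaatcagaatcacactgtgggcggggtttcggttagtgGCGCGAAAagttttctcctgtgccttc
Cdc6: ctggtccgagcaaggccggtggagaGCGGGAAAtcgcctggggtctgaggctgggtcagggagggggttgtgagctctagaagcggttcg
Orc3: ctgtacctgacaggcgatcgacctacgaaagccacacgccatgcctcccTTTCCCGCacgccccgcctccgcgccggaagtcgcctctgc
Gins3: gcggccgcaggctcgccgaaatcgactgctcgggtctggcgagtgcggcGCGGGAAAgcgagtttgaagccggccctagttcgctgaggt
Mcm6, at chr1:128359720-128359840 on the minus strand, holds 3 matches, of which 2 overlap, between 110 and 47 bases before the start. Mcm5, at chr8:75109331-75109420 on the plus strand, holds 2 overlapping matches. Orc1 (chr4:108579364-108579453, plus strand), Cdc6 (chr11:98907988-98908077, plus strand), Orc3 (chr4:34614943-34615032, minus strand) and Gins3 (chr8:95633469-95633558, plus strand) hold 1 each in the part before the start. Differences between the groups covered much the same range in genes with and without a word. The median log2 difference, MOTS-c minus vehicle, was -0.84 over the 15 genes with a word, with a range from -1.37 to 0.11, and -0.95 over the 24 without one, with a range from -1.20 to 0.050. A match is a string of letters and not a site shown to be bound. The other elements looked for were CCAAT, present in 26 of the 39 genes (66.7%) against 41.1% of all genes, and TTTGAA, the core of the cell cycle homology region, present in 6 (15.4%) against 20.2%.

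Transcripts of the replication machinery were lower in the spleens of MOTS-c mice as a body. The mean of 46 of the 48 genes was lower with MOTS-c, where 45.4% of all tested genes were, and the median log2 difference was -0.92, against 0.043 over all tested genes. In 41 of the 48, the 3 MOTS-c values lay below all 3 vehicle values, where 16.4% of tested genes did so, and in 0 of the 48 did they lie above, where 18.3% did. The same shares stand beside the counts without overlap of each role below. A difference of 2-fold or more downward was reached by 16 of the 48 and by 3.49% of tested genes. Values are log2 of the array signal after quantile normalization, so a difference of -1 is 2-fold lower.

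**Figure D1:**
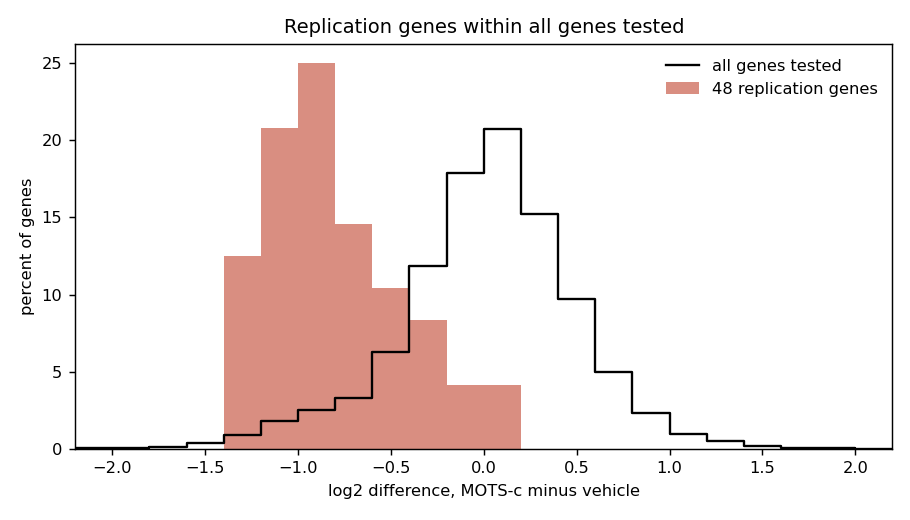
The share of genes, in percent, in each interval of the log2 difference (MOTS-c minus vehicle), for the 48 replication genes (bars) and for all 20902 tested genes (line). The replication genes centre on -0.92 and reach from -1.37 to 0.11, and the line centres on 0.043.

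No gene passed the test across all genes: in limma with Benjamini-Hochberg adjustment, 0 of the 48 and 0 of the 20902 (0%) had an adjusted p under 0.05. The smallest adjusted p of a replication gene was 0.0880. At an unadjusted p under 0.01, 32 of the 48 were lower, against 6.14% of tested genes, and 0 were higher, against 2.33%. The count of 32 was 21 without MOTS-c 1 and 21 without MOTS-c 3, where 3.11% and 2.47% of tested genes were lower at that limit. It was 31 without MOTS-c 2 (4.15% of tested genes), 29 without vehicle 1 (4.4%), 30 without vehicle 2 (7.77%) and 27 without vehicle 3 (6.3%). With the replicate number as a block it was 21, against 4.24% of tested genes, and with slide entered as a block it was 5, against 1.69%. In the fit with slide the smallest adjusted p of the 48 genes was 0.478. The threshold itself depended on the fit: 20 of the 48 passed when limma's variance prior followed signal intensity, where 436 of 20902 genes, or 2.09%, passed. When only genes above the median level were tested, 21 of the 43 replication genes among them passed, against 491 of 10451, or 4.7%. The authors' deposited table, whose test it does not name, has 31 of the 87 probes lower by 2-fold or more at a p-value under 0.05, against 2.18% of all its probes, and a smallest adjusted p-value of 0.370 among the 87.

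**Figure D2:**
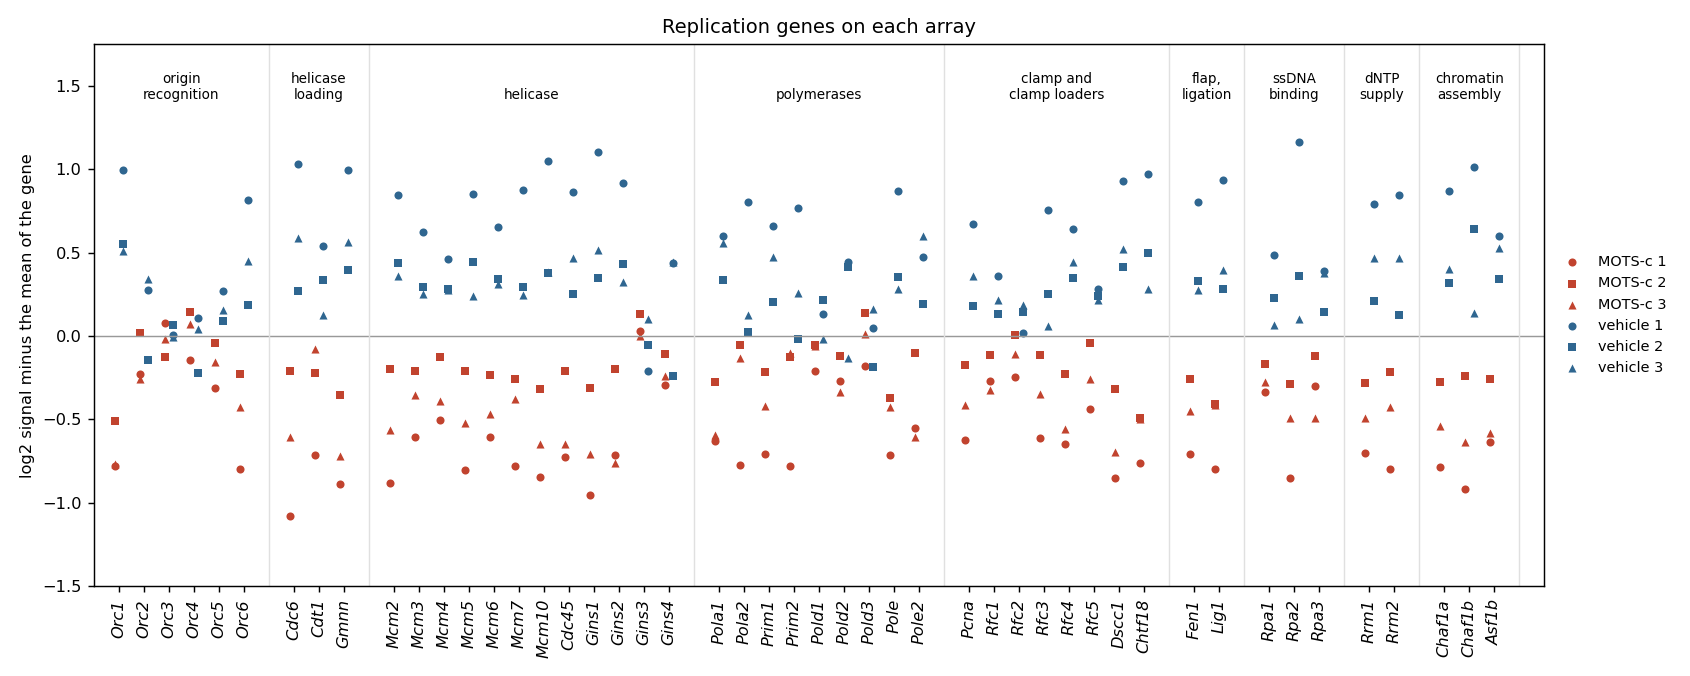
Signal of each of the 48 genes on each array, as log2 signal minus the mean of the gene over the 6 arrays, grouped by role, with MOTS-c arrays (red) left of vehicle arrays (blue) and a symbol for each replicate number. Vehicle 1 (blue circles) is the highest vehicle array for 40 genes and MOTS-c 2 (red squares) the highest MOTS-c array for 45.

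The 48 genes also varied together between arrays of 1 group. With the mean of each gene over the 6 arrays set to 0, the average over the 48 was -0.60, -0.19 and -0.40 on MOTS-c 1 to 3, against 0.64, 0.24 and 0.30 on vehicle 1 to 3 (log2). MOTS-c 2 was the highest MOTS-c array for 45 genes and vehicle 1 the highest vehicle array for 40, so the genes are not independent of each other and their number adds no replicates. The lowest vehicle array was vehicle 2 for 26 genes and vehicle 3 for 20. Vehicle 1 and vehicle 2 shared 1 slide and 1 scan, and the other 4 arrays another, so most of the vehicle group stands on a slide of its own. Within the second slide, which holds vehicle 3 and all 3 MOTS-c arrays, 48 of 48 genes had a lower MOTS-c mean, against 43.2% of tested genes, with a median of -0.75. There 44 of the 48 had every MOTS-c value below that of vehicle 3, against 29.1% of tested genes, and 11 had an unadjusted p under 0.01, against 4.97% of tested genes lower at that limit. The single vehicle array is assumed there to vary like the MOTS-c arrays. Without vehicle 1 the median was -0.77. Before normalization, the 75th percentile of the signal was 678 on vehicle 1, against 841 to 926 on the other arrays. With arrays scaled to their 75th percentile in place of quantile normalization, 42 of the 48 were lower without overlap, against 19.6% of tested genes.

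Markers of several cell types also differed between the groups. The counts without overlap below stand against 16.4% of tested genes that were lower and 18.3% that were higher in this way. The 8 proliferation markers, among them Mki67, which encodes the Ki-67 antigen, were all lower and not overlapping, with a median of -1.03, and their summed signal was 117163 to 137381 on MOTS-c arrays, against 203638 to 281980 on vehicle arrays. Of 14 markers of red cell precursors, 13 were in the table, all lower in the mean and 11 without overlap, with a median of -1.07 and a summed signal of 726260 to 805762 with MOTS-c, against 979520 to 1173160 with vehicle. Hba-a1, an alpha globin gene, read 18.57 to 18.63 on all arrays, at or next to the highest value that normalization gives an array, so its difference is limited by the scale. Without it, a sum added after seeing the data, the range was 337629 to 400979 with MOTS-c, against 574738 to 768381 with vehicle. The 12 T cell markers were all higher in the mean, 11 without overlap, with a median of 1.06 and a summed signal of 118411 to 132199 with MOTS-c, against 29889 to 86132 with vehicle. The 10 B cell markers were all higher in the mean, 6 without overlap, at 150882 to 166807 with MOTS-c, against 41125 to 124861 with vehicle. The 7 of 8 NK cell markers in the table were all higher in the mean, 3 without overlap, at 14502 to 22527 with MOTS-c, against 3029 to 13007 with vehicle. The lowest sum of each of these 3 lists was on vehicle 1. The 10 neutrophil markers were also all higher in the mean, with a median of 1.105, and all overlapped, at 155702 to 497366 with MOTS-c, against 98829 to 354901 with vehicle. The 8 macrophage markers, of red pulp and marginal zone, all overlapped, at 198088 to 263361 with MOTS-c, against 194950 to 209679 with vehicle. Of these, 6 were higher in the mean and 2 lower. The marginal zone genes Siglec1 (0.63) and Marco (0.49) had the largest differences. Of 8 markers of pancreas, 3 were in the table, all lower in the mean and 1 without overlap, at 4449 to 5649 with MOTS-c, against 5731 to 34982 with vehicle, with the highest sum on vehicle 3. No marker of these lists that is in the table was at 0, and Epb42, Ncr1 and 5 pancreas markers were not matched in it by symbol. The part of any cell type in the differences of the replication genes was not tested. In whole spleen, fewer dividing cells and less of these transcripts per cell cannot be told apart.

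Among the origin recognition genes, Orc1 and Orc6 had the larger differences, and the other 4 subunits differed less or overlapped. Orc1, the largest subunit and an ATPase, read 10.26, 10.53 and 10.28 on MOTS-c 1 to 3, against 12.04, 11.59 and 11.55 on vehicle 1 to 3. The groups were over 1 log2 unit apart at their nearest values, and the difference of -1.37 ± 0.18 (SE) was 2.59-fold, the largest of the 48 genes (adjusted p 0.0880). Orc6, the smallest subunit, read 11.60, 12.16 and 11.97 on MOTS-c 1 to 3, against 13.21, 12.58 and 12.84 on vehicle 1 to 3, again with no overlap and a difference of -0.97 ± 0.22 (SE). Orc2 to Orc5, with Orc1 the core of the complex, had smaller differences. Orc2 read 10.22, 10.46 and 10.18 on MOTS-c 1 to 3, against 10.72, 10.30 and 10.79 on vehicle 1 to 3, and vehicle 2 lay among the MOTS-c values. Its dimmer probe gave -0.66 ± 0.18 (SE) without overlap. Orc3 read 12.08, 11.88 and 11.98 on MOTS-c 1 to 3, against 12.01, 12.06 and 11.997 on vehicle 1 to 3, and the groups overlapped. Orc4 read 9.84, 10.13 and 10.06 on MOTS-c 1 to 3, against 10.09, 9.77 and 10.03 on vehicle 1 to 3, the groups overlapped, and its mean was the higher one with MOTS-c by 0.05, a sign that turned to -0.048 without vehicle 2 and to -0.015 within the second slide. Orc5 read 8.02, 8.29 and 8.17 on MOTS-c 1 to 3, against 8.60, 8.42 and 8.48 on vehicle 1 to 3, with no overlap and a small difference of -0.34 ± 0.13 (SE). The 95% intervals were -1.79 to -0.96 for Orc1, -0.33 to 0.24 for Orc3 and -0.31 to 0.40 for Orc4. Taken within each array, Orc1 minus Orc3 was -1.82, -1.34 and -1.70 on MOTS-c 1 to 3, against 0.032, -0.47 and -0.44 on vehicle 1 to 3, a difference between the groups of -1.33 with no overlap. It was not tested. Like the other pairs taken within an array below, this pair was not among the planned comparisons. Each sets a gene with a large difference against one with a smaller difference, so part of the gap follows from the choice. The median of the 6 ORC genes was -0.33.

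The loading factors and their inhibitor were all lower with MOTS-c, without overlap. Gmnn, the inhibitor, read 12.42, 12.95 and 12.59 on MOTS-c 1 to 3, against 14.30, 13.70 and 13.87 on vehicle 1 to 3, and its difference was -1.31 ± 0.21 (SE). Cdc6 read 10.54, 11.40 and 11.01 on MOTS-c 1 to 3, against 12.64, 11.88 and 12.20 on vehicle 1 to 3, with the widest spread of the 3 between arrays of a group and a difference of -1.26 ± 0.28 (SE). In both genes all MOTS-c values lay below all vehicle values. Cdt1, which geminin binds, differed by -0.67 ± 0.21 (SE) with no overlap, and its nearest values were 0.20 apart. The median of the 3 genes was -1.26.

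The 6 genes of the MCM ring were all lower without overlap, by their brightest probes within a narrow band from -1.10 to -0.68. Mcm2 read 11.60, 12.28 and 11.92 on MOTS-c 1 to 3, against 13.32, 12.92 and 12.84 on vehicle 1 to 3. Mcm3 read 13.72, 14.11 and 13.97 on MOTS-c 1 to 3, against 14.94, 14.62 and 14.58 on vehicle 1 to 3. Mcm4, with the smallest difference of the ring, read 13.52, 13.90 and 13.64 on MOTS-c 1 to 3, against 14.49, 14.31 and 14.30 on vehicle 1 to 3. In each of these the highest MOTS-c array was MOTS-c 2 and the highest vehicle array vehicle 1. Mcm5 read 11.98, 12.57 and 12.27 on MOTS-c 1 to 3, against 13.64, 13.23 and 13.03 on vehicle 1 to 3. Mcm6 read 14.73, 15.10 and 14.87 on MOTS-c 1 to 3, against 15.99, 15.68 and 15.65 on vehicle 1 to 3. Mcm7 read 13.46, 13.98 and 13.86 on MOTS-c 1 to 3, against 15.12, 14.54 and 14.48 on vehicle 1 to 3. The same arrays were highest in these genes, and the gap between the nearest values of the groups was 0.40 to 0.56 in all 6. Differences were -1.10 ± 0.22 (SE) for Mcm2, -1.02 for Mcm5, -0.94 for Mcm7, -0.87 for Mcm6, -0.78 for Mcm3 and -0.68 ± 0.15 (SE) for Mcm4, with adjusted p-values of 0.0880 to 0.0968. The intervals of Mcm2 (-1.62 to -0.57) and Mcm4 (-1.03 to -0.33) overlap, and the order within the ring was not tested. This order also rests on the brightest probes. Other probes gave -1.09 to -0.95 for Mcm3, -1.16 for Mcm6 and -1.08 for Mcm7.

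**Figure D3:**
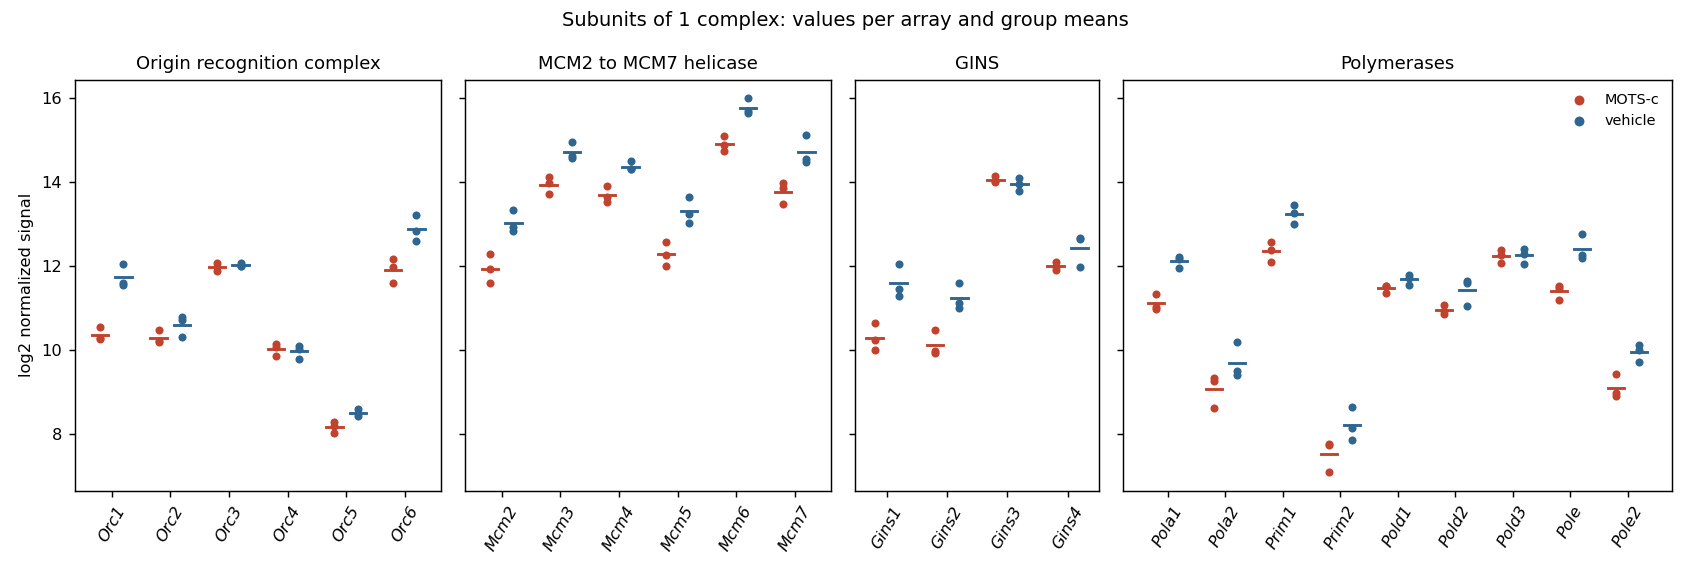
Log2 normalized signal of each subunit on each array, MOTS-c (red) left of vehicle (blue), with a line at the mean of each group of 3; heights of different genes come from different probes and cannot be compared. All MCM subunits separate between the groups, while Orc2, Orc3, Orc4, Gins3, Gins4, Pold2 and Pold3 overlap.

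GINS, which joins the ring with Cdc45, was uneven. Gins1 read 9.99, 10.63 and 10.23 on MOTS-c 1 to 3, against 12.04, 11.29 and 11.45 on vehicle 1 to 3, a difference of -1.31 ± 0.25 (SE) and the largest of the helicase genes. Gins3 read 14.03, 14.13 and 13.998 on MOTS-c 1 to 3, against 13.79, 13.95 and 14.10 on vehicle 1 to 3. Its groups overlapped and its mean was the higher one with MOTS-c, by 0.11 ± 0.13 (SE), and this sign turned to -0.13 when arrays were scaled to their 75th percentile and to -0.048 within the second slide. Gins2 differed by -1.11 with no overlap, and Gins4 by -0.43 with vehicle 2 inside the MOTS-c range. Within each array Gins1 minus Gins3 was -4.04, -3.51 and -3.77 on MOTS-c 1 to 3, against -1.75, -2.66 and -2.65 on vehicle 1 to 3. The groups of this balance did not overlap, and it was not tested. Mcm10, which helps to start the helicase, read 11.11, 11.63 and 11.30 on MOTS-c 1 to 3, against 12.999, 12.33 and 12.33 on vehicle 1 to 3 and differed by -1.20 ± 0.23 (SE). Cdc45 differed by -1.06 ± 0.21 (SE), with no overlap. The median of the 12 helicase genes was -0.98, and -0.75 within the second slide.

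All 9 polymerase genes were lower in the mean, against 45.4% of tested genes, with differences from -1.003 to -0.019. Of these, 7 were without overlap, against 16.4% of tested genes. Pole, the catalytic subunit of polymerase epsilon, read 11.18, 11.52 and 11.47 on MOTS-c 1 to 3, against 12.76, 12.25 and 12.18 on vehicle 1 to 3, with no overlap and a difference of -1.003 ± 0.20 (SE). Pola1, the catalytic subunit of polymerase alpha, read 10.98, 11.34 and 11.02 on MOTS-c 1 to 3, against 12.21, 11.94 and 12.17 on vehicle 1 to 3, and differed by -0.99 ± 0.15 (SE) (adjusted p 0.0880). Prim1 and Prim2, the primase subunits, differed by -0.89 and -0.67, Pole2 by -0.84 and Pola2 by -0.64, without overlap at the brightest probe. The second probe of Pole2 gave -0.47 and a dimmer probe of Pola2 -0.021, both with overlap. The 95% interval of Pola2 at its brightest probe was -1.30 to 0.025. The subunits of polymerase delta differed by -0.22 for Pold1, -0.48 for Pold2 and -0.019 for Pold3, and overlapped in Pold2 and Pold3. The choice of probe decides the value of Pold3, whose dimmer probe gave -1.31 without overlap. Within each array Pole minus Pold1 was -0.18, 0.0096 and -0.040 on MOTS-c 1 to 3, against 1.06, 0.46 and 0.63 on vehicle 1 to 3, a difference between the groups of -0.79 that was not tested. The median of the 9 polymerase genes was -0.67, and it was -0.47 without MOTS-c 1 and -0.46 without vehicle 1.

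**Figure D4:**
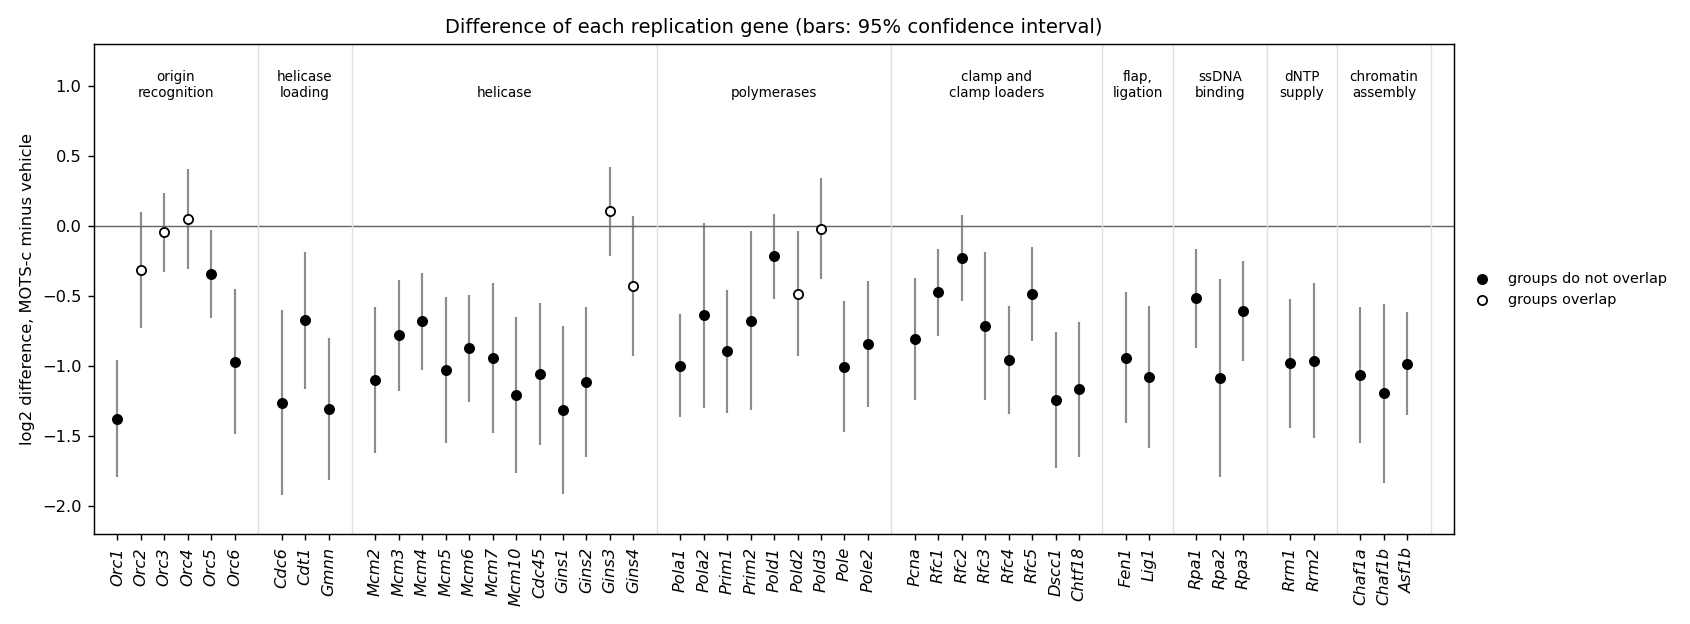
Log2 difference (MOTS-c minus vehicle) of each gene with its 95% confidence interval from limma, grouped by role; filled points mark the 41 genes whose groups do not overlap and open points the other 7. The intervals of Orc3, Orc4, Gins3 and Pold3 lie around 0, and those of Orc2, Gins4, Pola2, Pold1 and Rfc2 also include 0.

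The genes of the clamp and its loaders were lower in all 8 cases, none with overlap at the brightest probe, with a median of -0.76. Of tested genes, 16.4% were lower without overlap. By their brightest probes, Dscc1 and Chtf18 of the alternative loader that serves sister chromatid cohesion had the largest differences, while the second probe of Dscc1 gave -0.22 with overlap. Dscc1 read 8.87, 9.40 and 9.02 on MOTS-c 1 to 3, against 10.65, 10.13 and 10.24 on vehicle 1 to 3, and differed by -1.24 ± 0.20 (SE). Chtf18, the large subunit of that loader, read 9.92, 10.19 and 10.18 on MOTS-c 1 to 3, against 11.65, 11.18 and 10.96 on vehicle 1 to 3, and differed by -1.17 ± 0.20 (SE). The large subunit of the main loader, Rfc1, differed by -0.47 ± 0.13 (SE), and the small subunits by -0.96 for Rfc4, -0.71 for Rfc3, -0.49 for Rfc5 and -0.23 for Rfc2, where the nearest values of the groups were 0.0085 apart. Pcna, the clamp itself, differed by -0.81 ± 0.18 (SE). Taken within each array, Chtf18 minus Rfc1 was -1.504, -1.39 and -1.19 on MOTS-c 1 to 3, against -0.41, -0.65 and -0.95 on vehicle 1 to 3, a difference between the groups of -0.69 that was not tested.

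The enzymes that join the pieces of the lagging strand were both lower. Lig1, the DNA ligase of replication, read 12.78, 13.17 and 13.16 on MOTS-c 1 to 3, against 14.51, 13.86 and 13.97 on vehicle 1 to 3. Fen1, which trims the flap left by the previous primer, read 14.07, 14.52 and 14.33 on MOTS-c 1 to 3, against 15.58, 15.11 and 15.05 on vehicle 1 to 3. Neither overlapped, and the differences were -1.08 ± 0.21 (SE) and -0.94 ± 0.20 (SE). The single-strand binding protein RPA was lower in all 3 subunits without overlap. Rpa2 read 9.53, 10.10 and 9.90 on MOTS-c 1 to 3, against 11.55, 10.75 and 10.49 on vehicle 1 to 3, with the widest spread among vehicle arrays of the 48 genes (SD 0.55). Rpa3 read 12.65, 12.83 and 12.46 on MOTS-c 1 to 3, against 13.34, 13.09 and 13.32 on vehicle 1 to 3. The differences were -1.08 for Rpa2, -0.61 for Rpa3 and -0.52 for Rpa1, the large subunit that also serves DNA repair.

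Both genes of ribonucleotide reductase, the enzyme that makes deoxynucleotides from ribonucleotides, were lower by a like amount. Rrm1, the large subunit, read 12.86, 13.28 and 13.07 on MOTS-c 1 to 3, against 14.35, 13.77 and 14.03 on vehicle 1 to 3. Rrm2, the small subunit of dividing cells, read 13.97, 14.55 and 14.34 on MOTS-c 1 to 3, against 15.61, 14.89 and 15.23 on vehicle 1 to 3. Neither overlapped, and the differences were -0.98 ± 0.19 (SE) and -0.96 ± 0.23 (SE). The histone chaperones that repack new DNA were lower too. Chaf1b of chromatin assembly factor 1 read 11.83, 12.503 and 12.11 on MOTS-c 1 to 3, against 13.76, 13.38 and 12.88 on vehicle 1 to 3. Chaf1a, its large subunit, read 10.15, 10.66 and 10.40 on MOTS-c 1 to 3, against 11.80, 11.26 and 11.34 on vehicle 1 to 3. Asf1b, which hands histones to that factor, differed by -0.98 ± 0.15 (SE), with an adjusted p of 0.0880. All 3 were without overlap, at differences of -1.19, -1.06 and -0.98.

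Over the roles, medians were lowest for helicase loading (-1.26), chromatin assembly (-1.06), flap removal and ligation (-1.01), the helicase (-0.98) and nucleotide supply (-0.97). They were smaller in size for the clamp and its loaders (-0.76), the polymerases (-0.67), single-strand binding (-0.61) and origin recognition (-0.33). Roles hold 2 to 12 genes, and no difference between roles was tested. The 7 genes with overlap at their brightest probe were Orc2, Orc3, Orc4, Gins3, Gins4, Pold2 and Pold3. In Orc2, Orc3, Gins4 and Pold3 another probe was lower without overlap. Conversely, a dimmer probe overlapped in Dscc1, Pola2, Pole2 and Rfc5, which count as not overlapping by their brightest probe. Of the 7, Orc3, Gins3 and Pold3 are among the 15 genes with an E2F word, and so is Pold1.

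Several probes read 27 of the 48 genes, and mostly gave like differences. In 18 of the 27 the median difference of the other probes was lower than that of the brightest probe. Of all 87 probes, 84 were lower in the mean and 71 without overlap, against 46.3% and 16.7% of the 31692 probes of the table. The probes of 1 gene lay within 0.3 log2 units of each other in 16 of the 27 genes, and over 0.5 apart in 6, which are named here after their values were seen: Dscc1, Orc3, Pola2, Pold3, Pole and Rfc5. The 2 probes of Pold3 differed from each other. The brighter, on chromosome 7 at positions 107230645 to 107230704 of build mm9, read 12.06, 12.38 and 12.25 with MOTS-c, against 12.29, 12.05 and 12.40 with vehicle. The dimmer, at 107232163 to 107232222, read 8.86, 9.25 and 9.15 with MOTS-c, against 11.21, 10.34 and 9.63 with vehicle, a difference of -1.31 ± 0.37 (SE), and the mean over both probes was -0.66. Dscc1 differed by -1.24 at its brighter probe and by -0.22 at the other, and Pole by -1.003 and -1.75. Of the 4 probes of Orc3, 3 lay between -0.080 and -0.045 and the other at -0.60. The probes of Rfc5 gave -0.49, -0.62 and -0.050, and those of Pola2 reached from -0.75 to -0.021. Orc4 was the only gene with probes of opposite sign, from -0.14 to 0.16. Where in a transcript each probe lies was not determined.

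**Figure D5:**
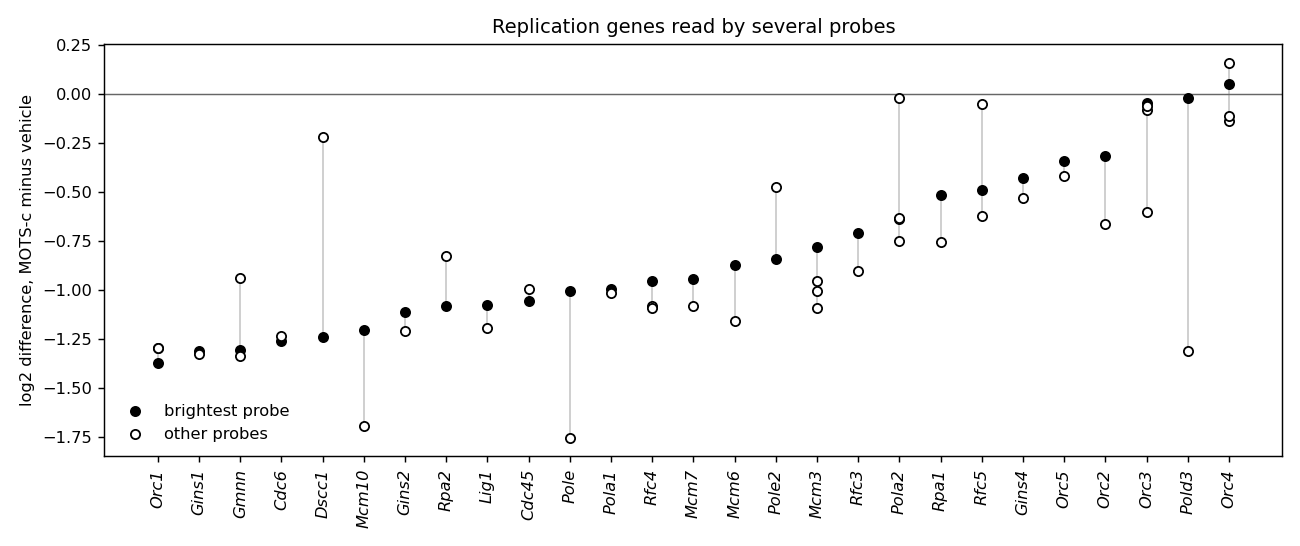
Log2 difference (MOTS-c minus vehicle) of each probe of the 27 genes read by several probes, with the brightest probe filled and the others open, ordered by the brightest. Most genes keep their probes close together, and Pold3, Dscc1, Pole and Pola2 have the longest lines.

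Genes of the same pathway outside the set were lower as well, with exceptions. Of 50 such genes listed, 49 were in the table and Ccne2 was not, 42 were lower in the mean and 34 without overlap (16.4% of tested genes), and the median was -0.70. At an unadjusted p under 0.01, 26 were lower and 1 was higher, against 6.14% and 2.33% of tested genes, and 0 passed the adjusted threshold. Dtl, which marks Cdt1 for destruction, differed by -1.61 ± 0.32 (SE). Clspn, a checkpoint adaptor at the fork, read 7.17, 7.84 and 7.53 on MOTS-c 1 to 3, against 9.49, 8.71 and 8.83 on vehicle 1 to 3, with no overlap. Of the genes of polymerase subunits and fork enzymes, Atad5, which unloads PCNA, differed by -1.38 and Pole3 by -1.02. Tk1, thymidine kinase, differed by -1.43, and Uhrf1 and Dnmt1, which copy DNA methylation, by -1.05 and -0.79. In 4 genes the MOTS-c values lay above all vehicle values, where 18.3% of tested genes did. They are named after their values were seen. Samhd1, which breaks down deoxynucleotides, read 14.42, 14.27 and 14.49 on MOTS-c 1 to 3, against 12.80, 13.69 and 13.76 on vehicle 1 to 3, a difference of 0.97 ± 0.27 (SE). Pold4, the smallest subunit of polymerase delta, read 13.39, 13.24 and 13.40 on MOTS-c 1 to 3, against 12.06, 13.02 and 12.86 on vehicle 1 to 3, Chtf8 of the alternative loader differed by 0.48, and Mcmbp, a partner of the MCM proteins, by 0.40. In all 4 genes the lowest vehicle array was vehicle 1.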

How the data were processed

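Total RNA of 3 MOTS-c and 3 vehicle spleens was hybridised to 1-colour Cy3 arrays and read with Agilent Feature Extraction 11.0.1.1, per the file headers. The scanner intensity was background-subtracted within each array, per the file headers. The authors' deposited table holds 31692 probes with log2 values, which share 1 distribution over the 6 arrays, as quantile normalization leaves them. It also holds the signed fold, a score deposited by the authors, and their p-value and adjusted p-value, from a test that is not named in it. The filter behind the table is not given in the sources used here. All its probes were well above background on all 6 arrays, 61.8 to 64.0% of the 56605 probes of an array were, and 0 were saturated. The number of arrays limits the precision.

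The log2 values were fitted with limma 3.58.1 in R 4.3.3 (lmFit and eBayes, two-sided, Benjamini-Hochberg over all 20902 genes and unnamed probes, threshold 0.05). The brightest probe stood for a gene, and 16361 symbols were named. On simulated data for this comparison, with 20902 genes, 44 of 100 genes changed by -1 (log2) and 89 of 100 changed by -2 were called, and 3 of 20702 unchanged ones. The simulated noise was independent between genes and held no slide effect, so these rates need not hold for the real arrays. The 48 genes, their roles, the 50 other pathway genes and the 8 marker lists were chosen with earlier results of these data known. Values in every array are given for the ORC, MCM and ribonucleotide reductase genes, for the 2 genes of each role with the largest difference and for any of opposite sign to its role's median. Of each list of other pathway genes, the 2 with the largest difference are named, except 1 that is not reported here. Alternatives covered scaling, background, probes, dim genes, slide, replicate block, variance prior and leaving out each array. Background correction with normexp (offset 50) used the median spot signal, since the files hold no mean signal. The 6 flag columns of the table were not used. Probe positions are those of the array design (mm9).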

Additional observations from a re-analysis of the deposited data

How the results depend on the processing

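The lower median of the 48 genes held under all alternatives run, from -1.05 with scaling to the 75th percentile to -0.75 within the second slide, and it was -0.77 without vehicle 1. Calls at an adjusted p under 0.05 did not hold still. Over all genes there were 0 in limma (5380 at an unadjusted p under 0.05), 1 with slide as a block, 436 with an intensity trend and 491 among genes above the median level. For the 48 genes the counts were 0, with 20 under the trend and 21 of the 43 among brighter genes. For the 49 other pathway genes they were 0, with 7 under the trend and 9 among brighter genes. Under the trend 2.09% of tested genes passed, and 4.7% of those above the median level passed when tested alone. The alternatives for the other pathway genes and for single probes were chosen after seeing the data. The helicase median of -0.98 was -0.75 within the second slide. The fit with slide as a block gives the same differences, since the first slide holds only vehicle arrays, and is no separate check of them. The polymerase median of -0.67 lay between -0.85 and -0.46 when 1 array was left out. Signs turned in 4 genes, all with overlapping groups. Orc3 lay between -0.094 and 0.0062 without single arrays. Orc4 was -0.0094 as the mean of its probes, -0.015 within the second slide, and between -0.048 and 0.13 without single arrays. Gins3 was -0.13 with scaling to the 75th percentile and -0.048 within the second slide. Pold3 lay between -0.12 and 0.067 without single arrays. The causes were not tested. The replicate numbers, taken from the titles, were not treated as pairing the samples, since deviations of same-numbered samples correlated at -0.186, 0.0246 and -0.074. The descriptions of vehicle 3 and MOTS-c 3 carry other numbers than their titles. With the replicate block 0 genes were called, and mean differences cannot change under it in this balanced design. Nor can they change under the intensity trend, which alters only the variance.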
